A study of Homo sapiens with 6 samples.

Results

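The H3K9 demethylases described here are 10 human genes, KDM4A, KDM4B, KDM4C and KDM4D of the KDM4 subfamily, KDM3A, KDM3B and JMJD1C of the KDM3 subfamily, and KDM7A, PHF2 and PHF8 of the KDM7 subfamily. They were taken by gene symbol from tables of 60666 genes, each symbol matched 1 row, and all 10 were abundant enough to be tested among 16959 genes. RNA was sequenced in 3 libraries of HCT116, a human colorectal cancer line of genotype WT, and in 3 of DNMT3B KO, which was derived from it by knocking out DNMT3B. Both were grown in McCoy's 5A medium with foetal calf serum and neither was treated. The DNMT3B KO cells are a single derived line, and whether its libraries, or those of HCT116, were grown apart is not given in the sources used here. The p-values therefore measure only the spread between these samples, which may be technical.

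Lysine demethylases of the JmjC type are iron-dependent oxygenases that use oxygen and 2-oxoglutarate to remove methyl groups from histone tails. Methylated lysine 9 of histone H3 (H3K9) marks silent chromatin: the trimethylated form is bound by HP1 proteins in constitutive heterochromatin, and the dimethylated form covers many repressed genes in euchromatin. KDM4 enzymes act on tri- and dimethylated H3K9, KDM3 enzymes on di- and monomethylated H3K9, and KDM7 enzymes, which bind H3K4me3 through a PHD finger, on dimethylated H3K9 among other sites. DNMT3B is a de novo DNA methyltransferase, and the study asked how its loss affects expression in heterochromatin marked by H3K9me3. The comparison made here is of the transcripts of enzymes that remove methyl groups from H3K9, of which the KDM4 enzymes act on the trimethylated form.

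The estimated counts summed to between 55436267 and 68274783 per library. DNMT3B, the targeted gene, stood at 38.5, 30.1 and 39.5 CPM (read counts scaled to a common library size, normalised for composition) in HCT116 replicates 1, 2 and 3, and at 2.54, 2.87 and 2.83 CPM in DNMT3B KO replicates 1, 2 and 3. Its log2 fold change, by the quasi-likelihood test of edgeR, was -3.71 (adjusted p = 2.5e-06, standard error 0.15). Of 9 markers of colorectal epithelium, 7 reached 1 CPM in any library while CDX1 and CDH17 stayed near 0, and the list summed to 4388 to 5256 CPM in HCT116 against 2123 to 2310 CPM with DNMT3B knocked out. Of 6 fibroblast, 6 leukocyte and 4 endothelial markers, 2, 1 and 1 reached 1 CPM. In HCT116 these lists summed to 9.98 to 19.9, 0.298 to 1.21 and 0.615 to 1.52 CPM, and with DNMT3B knocked out to 15.3 to 17.9, 1.45 to 1.63 and 1.48 to 1.94 CPM. The fibroblast marker LUM had no count, and COL1A2 and DCN lay near 0. Of the epithelial markers, the difference lay in KRT8 (1837 to 2628 against 957 to 1028 CPM), KRT18, KRT19 and CDH1, while EPCAM (284 to 327 against 272 to 307 CPM) and CDX2 (20.9 to 23.5 against 19.6 to 21.2 CPM) overlapped between the lines and VIL1 was higher in DNMT3B KO cells. The part of these keratins in the results was not tested.

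Most H3K9 demethylase transcripts differed between the cell lines, and most of the differences were small. In DNMT3B KO cells, 5 of the 10 rose (KDM4A, KDM4C, KDM4D, KDM3A and PHF8), 2 fell (JMJD1C and PHF2) and 3 did not pass the test (KDM4B, KDM3B and KDM7A). Over all tested genes 28.1% passed, 12.9% higher and 15.1% lower. The libraries of the cell lines did not overlap for 8 of the 10, as for 45.9% of all tested genes. The median log2 fold change of the 10 was 0.26, against -0.00 over all tested genes, and the median of its absolute size was 0.32, against 0.31 over all tested genes and 0.90 over those that passed. KDM4D, with a rise of 2.57-fold, was the only member to change by over 2-fold. It was also the only member to pass under each of the 12 alternatives tried, since the calls depended on the libraries. Only KDM4D passed when either HCT116 replicate 1 or DNMT3B KO replicate 3 was left out, with 17.8% of all tested genes each time. Without DNMT3B KO replicate 2 the members that passed were KDM4D and KDM4A, with 17.6% of all tested genes. Without DNMT3B KO replicate 1 they were KDM4D, KDM4A and PHF2, with 18.1% of all tested genes. Without HCT116 replicate 2, 8 members and 34.1% of all tested genes passed, and without HCT116 replicate 3, 7 members and 32.8%. The share of all tested genes that passed thus also moved with the library left out. Scaling by total counts moved the median log2 fold change of all tested genes to 0.13. With it 6 members rose and 0 fell, and 30.9% of all tested genes passed. Because each value is an average over a culture, fewer expressing cells and less RNA per cell cannot be told apart.

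**Figure D1:**
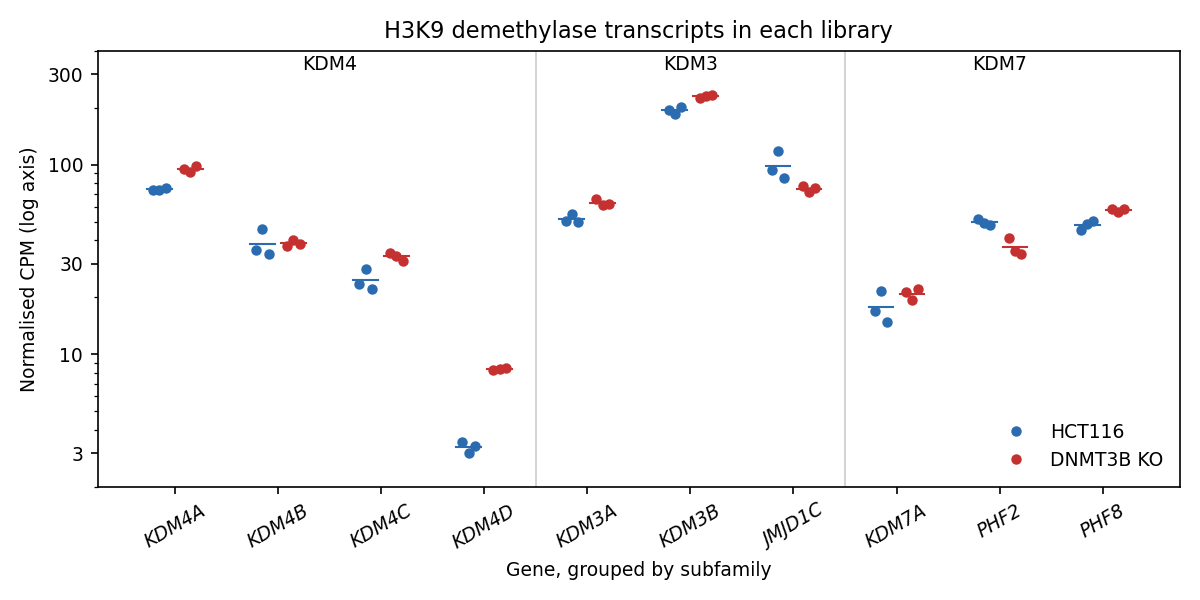
Normalised CPM (log axis) of the 10 H3K9 demethylases, grouped by subfamily, with 1 point per library (blue for the 3 of HCT116, red for the 3 of DNMT3B KO) and a short bar at each mean. The points of the cell lines are apart for 8 genes and overlap for KDM4B and KDM7A, and KDM4D shows the widest gap, from 3.25 to 8.36 CPM.

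KDM4D had the largest relative change of the KDM4 genes. It encodes a short KDM4 enzyme without the PHD and Tudor domains of KDM4A, KDM4B and KDM4C, and lies on chromosome 11 from 94973709 to 94999519 (hg38, plus strand). Its values were 3.43, 3.03 and 3.29 CPM in HCT116 replicates 1, 2 and 3 and 8.24, 8.34 and 8.50 CPM in DNMT3B KO replicates 1, 2 and 3. All DNMT3B KO libraries lay above all HCT116 libraries, with little spread within each line. The log2 fold change was 1.36 (standard error 0.15, 95% interval 1.02 to 1.71, adjusted p = 0.00042, edgeR), and it was 1.30 to 1.50 under the alternatives. Its close paralogs KDM4E and KDM4F were all but silent, with no count for KDM4F in any library and for KDM4E in all but DNMT3B KO replicate 3 (0.0152 CPM), where a count of 0 allows up to 0.0416 to 0.0595 CPM per library (3 counts, counting error only). Of the 50-base stretches of the KDM4D transcript, 99.9% occur in no other annotated gene.

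KDM4D shares its start region with CWC15, a splicing factor gene on the other strand whose start lies at -123 bases from that of KDM4D (negative is upstream). CWC15 stood at 39.9, 36.5 and 39.7 CPM in HCT116 replicates 1, 2 and 3 and at 39.9, 41.8 and 39.3 CPM in DNMT3B KO replicates 1, 2 and 3. The libraries overlapped and the gene did not pass the test (log2 fold change 0.06, standard error 0.08, adjusted p = 0.64, edgeR). Downstream, the nearest tested gene was SRSF8, another splicing factor gene, which did not pass either (log2 fold change 0.07, standard error 0.15, adjusted p = 0.75).

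KDM4A, which demethylates both H3K9 and H3K36 and lies on chromosome 1 from 43650149 to 43705518, stood at 73.3, 74.0 and 75.6 CPM in HCT116 and at 94.7, 91.6 and 98.9 CPM in DNMT3B KO replicates 1, 2 and 3. The groups did not overlap and the rise was 1.28-fold (log2 fold change 0.36, standard error 0.08, adjusted p = 0.011, edgeR). The call was lost without HCT116 replicate 1 (adjusted p = 0.064) and without DNMT3B KO replicate 3 (adjusted p = 0.062). Only 55.1% of the 50-base stretches of KDM4A are unique, as a same-strand gene model listed without a symbol shares the rest, but that model held 0.0803 CPM in HCT116 and 0 with DNMT3B knocked out. The antisense RNA KDM4A-AS1 did not pass (1.03 and 1.37 CPM, adjusted p = 0.25). Nor did the nearest tested genes on each side, PTPRF, a receptor phosphatase gene (log2 fold change -0.22, adjusted p = 0.19), and ST3GAL3, a sialyltransferase gene (log2 fold change 0.78, adjusted p = 0.090).

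KDM4C, of like specificity and found amplified in some carcinomas, lies on chromosome 9 from 6720863 to 7175648. It was at 23.6, 28.2 and 22.2 CPM in HCT116 and at 34.4, 32.9 and 31.1 CPM in DNMT3B KO replicates 1, 2 and 3. All 3 DNMT3B KO values were higher, and HCT116 replicate 2 came closest to them. The log2 fold change was 0.41 (standard error 0.11, adjusted p = 0.029, edgeR). The call was lost when HCT116 replicate 1 or DNMT3B KO replicate 1, 2 or 3 was left out (adjusted p = 0.12, 0.11, 0.093 and 0.061). The nearest tested genes overlap KDM4C and did not pass: the same-strand RNA AL354707.1, which starts upstream of it, stood at 1.48 and 2.21 CPM (adjusted p = 0.28) and the pseudogene SNRPEP2 on the other strand at 0.196 and 0.131 CPM (adjusted p = 0.28).

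KDM4B, the hypoxia- and oestrogen-responsive member on chromosome 19 from 4969113 to 5153598, was at 35.7, 45.7 and 33.9 CPM in HCT116 and at 37.4, 39.9 and 38.1 CPM in DNMT3B KO replicates 1, 2 and 3. The highest and the lowest value were both from HCT116. Its log2 fold change was 0.00 with a 95% interval of -0.28 to 0.29 (adjusted p = 0.99, edgeR). Its sign turned with the scaling, the test and the library left out.

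**Figure D2:**
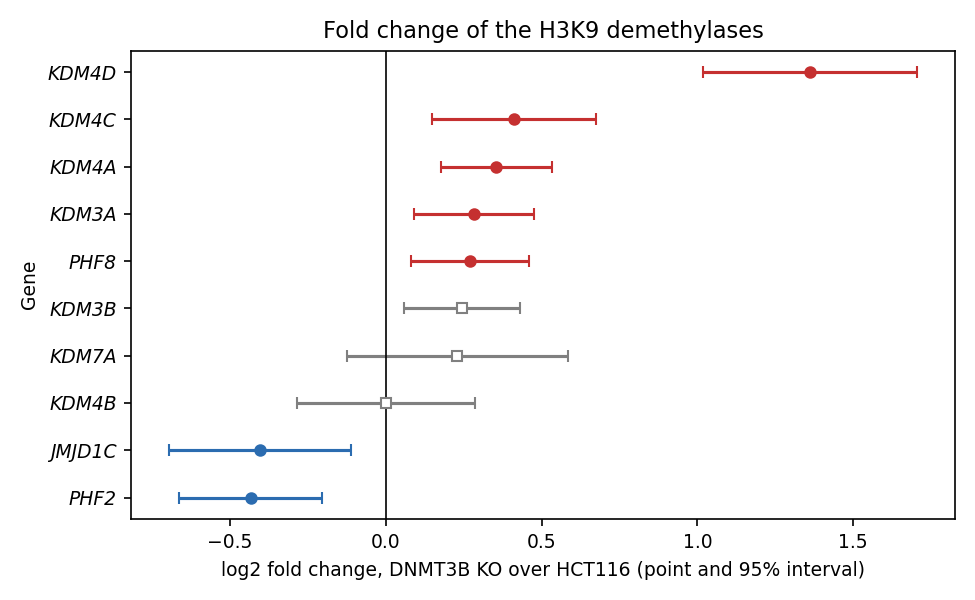
Log2 fold change of DNMT3B KO over HCT116 for each of the 10 genes, with its 95% interval from edgeR. Filled circles passed the test (red higher, blue lower) and open grey squares did not, and KDM4D at 1.36 lies beyond the intervals of all the others.

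Among KDM3 genes, KDM3A rose and JMJD1C fell. KDM3A, a hypoxia-induced coactivator of nuclear receptors on chromosome 2 from 86440647 to 86492716, was at 50.5, 55.2 and 49.9 CPM in HCT116 and at 65.6, 61.2 and 62.4 CPM in DNMT3B KO replicates 1, 2 and 3. The groups did not overlap. The log2 fold change was 0.28 (standard error 0.08, adjusted p = 0.038, edgeR), a call lost when low counts were not filtered (adjusted p = 0.083). It was also lost without HCT116 replicate 1 or 3 (adjusted p = 0.15 and 0.061) and without DNMT3B KO replicate 1, 2 or 3 (adjusted p = 0.14, 0.089 and 0.10). The nearest tested genes, REEP1 and CHMP3, had log2 fold changes of 0.32 and 0.26 and did not pass (adjusted p = 0.079 and 0.090).

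JMJD1C, a large KDM3 protein whose demethylase activity is debated, lies on chromosome 10 from 63167221 to 63521850 on the minus strand. It stood at 93.4, 118 and 84.9 CPM in HCT116 and at 77.1, 72.0 and 75.2 CPM in DNMT3B KO replicates 1, 2 and 3. The DNMT3B KO libraries were all lower, with HCT116 replicate 2 far above the other libraries of its line. The log2 fold change was -0.40 (standard error 0.13, adjusted p = 0.047, edgeR), and -0.26 without HCT116 replicate 2. The call was lost without HCT116 replicate 1 (adjusted p = 0.090), with DNMT3B KO replicate 1, 2 or 3 left out (adjusted p = 0.11, 0.15 and 0.12), with a filter of 1 CPM in 3 libraries (adjusted p = 0.051) and with total counts as the scaling (adjusted p = 0.18). The antisense RNA JMJD1C-AS1 was low in both lines and passed as lower, from 0.761 to 0.318 CPM (log2 fold change -1.26, standard error 0.38, adjusted p = 0.039, edgeR). It overlaps JMJD1C on the other strand, so reads of both genes may be shared. REEP3, whose start on the other strand lies 449 bases inside JMJD1C, did not pass (log2 fold change -0.34, standard error 0.18, adjusted p = 0.21). Nor did the nearest tested gene upstream, the pseudogene RPL7AP50 (log2 fold change -0.04, adjusted p = 0.97).

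KDM3B, on chromosome 5 from 138352685 to 138437028, was the most abundant of the 10 and a broadly expressed H3K9 demethylase. Its values were 196, 185 and 201 CPM in HCT116 and 225, 231 and 234 CPM in DNMT3B KO replicates 1, 2 and 3. The groups did not overlap, but the log2 fold change of 0.25 (standard error 0.08, 95% interval 0.06 to 0.43, adjusted p = 0.056, edgeR) did not pass. It passed with DESeq2 (adjusted p = 0.043), with a filter of 1 CPM (adjusted p = 0.042), with total counts as the scaling (adjusted p = 0.0047) and without HCT116 replicate 3 (adjusted p = 0.046).

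Of the KDM7 genes, PHF2 fell, PHF8 rose and KDM7A did not pass. PHF2, which works with the DNA-binding protein ARID5B and lies on chromosome 9 from 93576584 to 93679587, had 52.0, 49.2 and 47.9 CPM in HCT116 and 41.1, 35.3 and 34.0 CPM in DNMT3B KO replicates 1, 2 and 3. All DNMT3B KO libraries were lower. The log2 fold change was -0.43 (standard error 0.10, adjusted p = 0.014, edgeR). The call was lost without HCT116 replicate 1 (adjusted p = 0.064), without DNMT3B KO replicate 2 or 3 (adjusted p = 0.067 and 0.066) and with total counts as the scaling (adjusted p = 0.081). The nearest tested genes, FAM120AOS and PTPDC1, had log2 fold changes of 0.28 and 0.39 and did not pass (adjusted p = 0.066 and 0.067).

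PHF8, which also demethylates H4K20 and is mutated in an X-linked intellectual disability, lies on chromosome X from 53936676 to 54048958. It had 45.1, 48.5 and 50.3 CPM in HCT116 and 58.5, 56.5 and 58.6 CPM in DNMT3B KO replicates 1, 2 and 3. The groups did not overlap and the log2 fold change was 0.27 (standard error 0.08, adjusted p = 0.041, edgeR). The call was lost when low counts were not filtered (adjusted p = 0.10), without HCT116 replicate 1 (adjusted p = 0.18) and with DNMT3B KO replicate 1, 2 or 3 left out (adjusted p = 0.13, 0.10 and 0.14). The nearest tested genes, FAM120C and HUWE1, a ubiquitin ligase gene, had log2 fold changes of 0.18 and -0.21 and did not pass (adjusted p = 0.69 and 0.22).

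KDM7A, which acts on dimethylated H3K9 and H3K27, lies on chromosome 7 from 140084746 to 140176983. It had 17.0, 21.7 and 14.8 CPM in HCT116 and 21.2, 19.3 and 22.2 CPM in DNMT3B KO replicates 1, 2 and 3. HCT116 replicate 2 lay among the DNMT3B KO libraries. The log2 fold change was 0.23 (95% interval -0.12 to 0.58, adjusted p = 0.31, edgeR), and leaving out single libraries moved it both ways. Without HCT116 replicate 2 it was 0.39 and passed (adjusted p = 0.036), and without HCT116 replicate 3 it was 0.12 (adjusted p = 0.54).

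**Figure D3:**
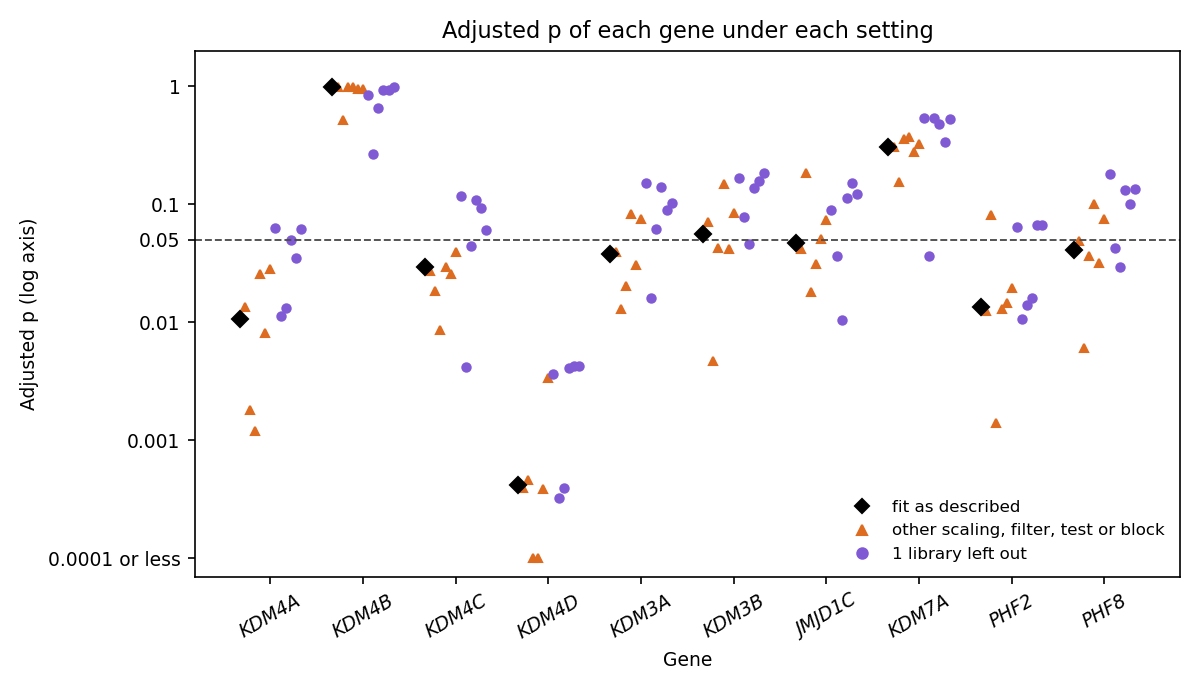
Adjusted p (log axis, values under 0.0001 drawn at 0.0001) of each gene in the fit as described (black diamonds), with another scaling, filter, test or a replicate block (orange triangles) and with 1 library left out (purple circles), and a dashed line at 0.05. All points of KDM4D lie below the line and all points of KDM4B above it, while every other gene has points on both sides.

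Ratios within a library do not depend on its scaling. They are given as a description for 3 pairs of paralogs that were chosen after their values were seen, with levels set per length, as CPM per kilobase of the canonical transcript. The ratio of PHF2 to PHF8 was 1.36, 1.20 and 1.12 in HCT116 and 0.829, 0.737 and 0.684 in DNMT3B KO replicates 1, 2 and 3. Which of the pair is the more abundant in DNMT3B KO cells depends on the length used, as with the union of exons PHF2 (6.82 ± 0.702) stayed above PHF8 (5.72 ± 0.117) there (CPM per kilobase, SD, n = 3). The ratio of JMJD1C to KDM3A was 1.01 ± 0.119 (SD, n = 3) in HCT116 and 0.632 ± 0.00965 (SD, n = 3) in DNMT3B KO cells. With the union of exons as length, JMJD1C instead lay above KDM3A in both lines. They then stood at 8.86 ± 1.56 and 3.90 ± 0.220 in HCT116, and at 6.70 ± 0.231 and 4.74 ± 0.172 in DNMT3B KO cells (CPM per kilobase, SD, n = 3). For KDM4D to KDM4A the ratio, per canonical length, was 0.0665 ± 0.00449 in HCT116 and 0.134 ± 0.00407 in DNMT3B KO cells (SD, n = 3). No test is given for these ratios, since the choice of the pairs fixed their direction.

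On the same per-length scale, KDM3B was the highest of the 10 in both lines, at 28.8 ± 1.24 CPM per kilobase in HCT116 and 34.2 ± 0.669 after the knockout (SD, n = 3). It was followed by KDM4A at 16.6 ± 0.266 and 21.2 ± 0.819. In HCT116 the order went on with JMJD1C and KDM3A, whose libraries overlapped, then PHF2, PHF8, KDM4B and KDM4C, of which PHF8 overlapped with KDM4B and KDM4B with KDM4C. KDM7A (1.94 ± 0.384) and KDM4D (1.10 ± 0.0692) were lowest. In DNMT3B KO cells PHF2 went from the fifth to the eighth place, overlapping with KDM4B, whereas with the union of exons as length it was the third in both lines and KDM3A the sixth. KDM4D (2.83 ± 0.0454) lay above KDM7A (2.27 ± 0.159) in every library. The summed level of the 10 was 98.5, 104 and 97.8 in HCT116 and 114, 111 and 114 in DNMT3B KO replicates 1, 2 and 3, higher in all 3. The KDM4 sum was 30.2 ± 1.71 and 38.5 ± 0.472, the KDM3 sum 51.2 ± 1.38 and 56.2 ± 0.514, and the KDM7 sum 18.7 ± 0.369 and 18.2 ± 0.830 (SD, n = 3). KDM3B made up 28.8% and 30.3% of the summed level in the lines, and KDM4D 1.10% and 2.51%.

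**Figure D4:**
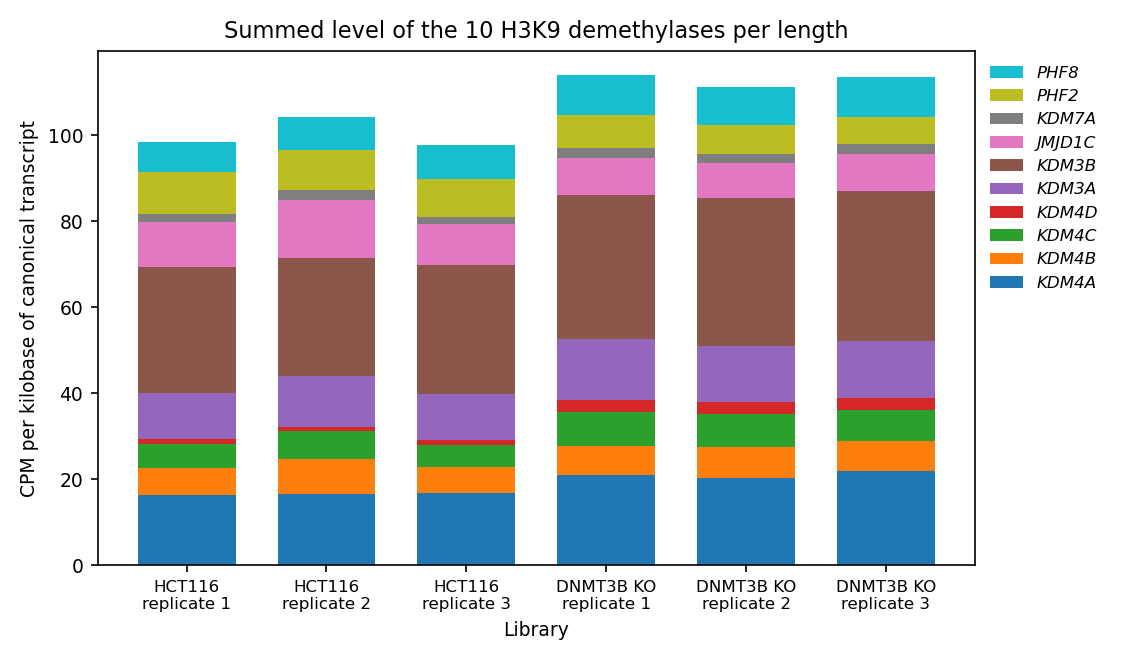
Summed level of the 10 genes in CPM per kilobase of canonical transcript, stacked by gene, for each of the 6 libraries. The HCT116 stacks reach 97.8 to 104 and the DNMT3B KO stacks 111 to 114, with KDM3B the thickest band in each.

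DNMT3B adds methyl groups to cytosines of CpG pairs, so the CpG pairs before the start sites were counted, although methylation was not measured in these files. RefSeq (GRCh38.p14) gave 15 start regions for the 10 genes, and their first 250 bases, which lie upstream of each start, held a median of 22 CpG pairs, against 11 over 35116 start regions. The 35116 were not limited to genes tested here, whereas all 10 members were tested, so the sets are unlike. The member counts ran from 1 at a start of PHF8 to 50 at KDM7A. The stretches of the 3 members with the smallest adjusted p are shown with CpG in capitals, for KDM4D (chr11:94973459-94973708, plus strand, higher in DNMT3B KO cells), KDM4A (chr1:43649899-43650148, plus strand, higher) and PHF2 (chr9:93576334-93576583, plus strand, lower).
KDM4D: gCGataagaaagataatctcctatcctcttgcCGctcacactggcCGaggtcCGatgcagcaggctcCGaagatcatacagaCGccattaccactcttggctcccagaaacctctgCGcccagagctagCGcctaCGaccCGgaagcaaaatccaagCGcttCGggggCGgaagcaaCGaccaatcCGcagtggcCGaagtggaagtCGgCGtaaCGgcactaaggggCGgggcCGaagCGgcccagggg
KDM4A: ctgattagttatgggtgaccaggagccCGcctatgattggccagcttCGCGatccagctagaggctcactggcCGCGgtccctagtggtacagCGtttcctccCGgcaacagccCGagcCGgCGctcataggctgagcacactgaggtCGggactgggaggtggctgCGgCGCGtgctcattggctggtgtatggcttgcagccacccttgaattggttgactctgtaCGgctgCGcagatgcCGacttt
PHF2: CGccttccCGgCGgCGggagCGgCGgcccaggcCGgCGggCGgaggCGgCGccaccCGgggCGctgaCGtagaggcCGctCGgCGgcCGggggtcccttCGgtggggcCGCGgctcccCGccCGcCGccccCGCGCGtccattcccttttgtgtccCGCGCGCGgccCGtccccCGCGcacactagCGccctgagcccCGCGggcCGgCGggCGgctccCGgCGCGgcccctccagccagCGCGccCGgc
They hold 22, 17 and 46 CpG pairs for KDM4D, KDM4A and PHF2, more than 72.0%, 61.0% and 99.6% of all start regions. ACGTG, a form of the hypoxia response core, was searched on both strands, and other forms such as GCGTG were not counted. It occurs in 4 of the 15 member regions, those of KDM4B, KDM4C, KDM7A and a start of JMJD1C, and in 18.5% of all start regions. The regions of KDM4D, KDM4A and PHF2 hold no ACGTG, though that of KDM4A holds GCGTG.

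The genes around the members were counted next. Tested genes that start within 500 kb of a member numbered 4 to 23. Of all tested genes, 12.9% rose and 15.1% fell. Around KDM4D 2 of 11 fell, around KDM4A 2 of 23, around PHF2 2 of 6, around KDM7A 2 of 9 and around JMJD1C 1 of 4, and around KDM4C 1 of 5 rose. Around KDM3A 1 of 11 rose and 1 fell, around KDM3B 2 of 12 rose and 1 fell, and around PHF8 1 of 6 rose and 1 fell. The most genes that passed lay within 500 kb of KDM4B, which itself had a log2 fold change of 0.00. Of 16, 7 were lower, 9 did not pass and the median log2 fold change was -0.41. The nearest tested genes on each side of KDM4B, UHRF1 and PTPRS, did not pass (log2 fold change 0.12 and -0.31, adjusted p = 0.73 and 0.11, edgeR). Of the 7, LRG1 (1.40 to 0.119 CPM) and AC027319.1 (0.265 to 0.0430 CPM) were near the floor. With so few genes at each member, nothing is read from these shares. Chosen after its values were seen, PLIN3, a lipid droplet protein gene upstream of KDM4B, fell from 312 to 140 CPM (log2 fold change -1.16, standard error 0.10, adjusted p = 0.00011, edgeR).

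Of other demethylases and proteins with a JmjC domain, 21 were tested, of which 3 rose, 1 fell and 17 did not pass (19.0% called, against 28.1% of all tested genes). HR, which encodes the H3K9-directed corepressor hairless, rose from 34.4 ± 1.21 to 64.7 ± 7.82 CPM (mean ± SD, n = 3; the log2 fold change was 0.91, standard error 0.11, adjusted p = 0.00054, edgeR). KDM1B, a flavin-dependent H3K4 demethylase gene, rose by 0.35 on the log2 scale (adjusted p = 0.015), a call lost when HCT116 replicate 1 or DNMT3B KO replicate 1 or 3 was left out (adjusted p = 0.068, 0.072 and 0.079). RIOX2, a ribosomal oxygenase gene, had a log2 fold change of 0.31 (adjusted p = 0.042) that passed in 4 of 12 alternatives. HSPBAP1 fell by 0.52 on the log2 scale (adjusted p = 0.032) and passed in 5 of 12. Relative log expression size factors and no filter ended the call of RIOX2 (adjusted p = 0.052 and 0.073), and total counts and no filter that of HSPBAP1 (adjusted p = 0.0998 and 0.053). For RIOX2 the call was lost without HCT116 replicate 1 or 2 (adjusted p = 0.11 and 0.055) or DNMT3B KO replicate 1, 2 or 3 (adjusted p = 0.11, 0.12 and 0.15). For HSPBAP1 it was lost without HCT116 replicate 1 (adjusted p = 0.066) or DNMT3B KO replicate 1, 2 or 3 (adjusted p = 0.056, 0.11 and 0.12).

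A list of 15 held H3K9 methyltransferase and HP1 genes, writers and readers of the mark, plus WIZ, ATF7IP and TRIM28, which are neither. Of the 15, 0 rose, 3 fell and 12 did not pass in edgeR (20.0% called, against 28.1% of all tested genes, of which 15.1% fell). Later counts of methyltransferase or HP1 genes are of this whole list. At an unadjusted p under 0.05, 4 were higher, and DESeq2 called 0 higher. The H3K9 methyltransferase SETDB2 went down from 9.97 ± 1.10 to 5.82 ± 0.333 CPM (mean ± SD, n = 3; the log2 fold change was -0.78, standard error 0.15, adjusted p = 0.0062). MECOM, a PR domain transcription factor gene, fell from 7.73 ± 0.881 to 3.46 ± 0.287 CPM (log2 fold change -1.16, adjusted p = 0.0016). SETDB1, the main H3K9 trimethylase at retroelements, went from 58.6 ± 3.00 to 47.4 ± 0.530 CPM (log2 fold change -0.31, adjusted p = 0.024), and its call was lost when HCT116 replicate 1 or DNMT3B KO replicate 1, 2 or 3 was left out (adjusted p = 0.11, 0.085, 0.093 and 0.082). It was also lost with total counts as the scaling (log2 fold change -0.17, adjusted p = 0.18) and when low counts were not filtered (adjusted p = 0.057), so that SETDB1 passed in 5 of 12 alternatives. The count that rose was 5 with total counts as the scaling and 3 without HCT116 replicate 3.

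Genes of proteins reported to work with the demethylases or to control them moved in both directions. Of 12 tested, 2 rose, 4 fell and 6 did not pass (50.0% called, against 28.1% of all tested genes). ARID5B, the partner of PHF2, rose from 11.7 ± 0.534 to 20.1 ± 3.46 CPM (mean ± SD, n = 3; the log2 fold change was 0.78, standard error 0.15, adjusted p = 0.0062, edgeR), while PHF2 fell. ZNF711, a zinc finger protein that recruits PHF8, rose from 13.2 ± 1.34 to 25.1 ± 1.30 CPM (log2 fold change 0.92, adjusted p = 0.00080). HDAC1, a histone deacetylase gene, fell from 305 ± 4.10 to 164 ± 1.76 CPM (log2 fold change -0.89, adjusted p = 0.00012). The hypoxia-inducible factors HIF1A, which activates KDM3A and KDM4B in low oxygen, and EPAS1 fell by 0.82 and 1.15 on the log2 scale (adjusted p = 0.00083 and 0.0034). These 5 genes passed in all 12 alternatives. ARID5B was singled out after its values were seen.

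Hypoxia-induced genes other than the demethylases gave 1 of 16 higher, 3 lower and 12 that did not pass (25.0% called, against 28.1% of all tested genes). ADM, a vasodilator peptide gene, fell from 25.3 to 3.88 CPM (means of 3 libraries; log2 fold change -2.71, standard error 0.19, adjusted p = 5.0e-05, edgeR), and the glucose transporter SLC2A1 from 237 ± 50.6 to 104 ± 4.84 CPM (log2 fold change -1.19, adjusted p = 0.00086). NDRG1 fell by 0.87 on the log2 scale (adjusted p = 0.031), and DDIT4, an inhibitor of mTORC1 signalling, rose by 0.43 (adjusted p = 0.039). The call of NDRG1 was lost when HCT116 replicate 1 or DNMT3B KO replicate 1, 2 or 3 was left out (adjusted p = 0.054, 0.081, 0.12 and 0.087) and with total counts as the scaling (adjusted p = 0.065). Without HCT116 replicate 2 the log2 fold change of NDRG1 was -0.52 (adjusted p = 0.0090). That of DDIT4 was lost when HCT116 replicate 1 or 3 or DNMT3B KO replicate 1, 2 or 3 was left out (adjusted p = 0.13, 0.056, 0.14, 0.098 and 0.067). A further 24 genes make or use 2-oxoglutarate or clear the metabolites that compete with it. Of these, 0 rose, 1 fell and 23 did not pass in edgeR (4.17% called, against 28.1% of all tested genes). None was higher at an unadjusted p under 0.05 or by DESeq2, and 4 were lower at that unadjusted p. The gene that fell was DLST, a subunit of the 2-oxoglutarate dehydrogenase complex (log2 fold change -0.51, standard error 0.09, edgeR adjusted p = 0.0045). The number that fell was 3 with DESeq2 and without HCT116 replicate 2 or 3.

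Across the 6 libraries, log2 CPM of other genes was compared with that of KDM4D after adding 0.5 CPM to each value. The protein-coding genes that followed it most closely were MAGEA9B, a cancer-testis gene, CELF2, an RNA-binding protein gene, and MEIOSIN, a meiotic initiation gene (Pearson r = 0.999 each). The reads of MAGEA9B are uncertain, as its copy MAGEA9 is nearly identical. These correlations rest on the difference between the cell lines that all these genes share, and 127 of 13648 protein-coding genes reached 0.99. MAGEA9B went from 0.156 ± 0.137 to 74.2 ± 1.85 CPM and CELF2 from 0.0987 ± 0.0671 to 31.1 ± 1.62 CPM (SD, n = 3), near the floor in HCT116. MEIOSIN went from 2.87 ± 0.448 to 38.2 ± 0.779 CPM (SD, n = 3). Pearson r does not measure the size of a change, which was 488-, 307- and 13.3-fold for these genes against 2.57-fold for KDM4D.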

How the data were processed

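RNA-seq of 3 HCT116 and 3 DNMT3B KO libraries was used. Per the labels and the study's methods, the authors aligned reads to hg38 with STAR and deposited Salmon estimated counts per gene, scaled for gene length but not for library size. Estimated counts were rounded to whole numbers, filtered with filterByExpr, scaled by TMM and tested with edgeR 4.0.16 (quasi-likelihood F test, genotype only, R 4.3.3), with Benjamini-Hochberg adjustment over all 16959 tested genes and a threshold of 0.05. DESeq2 1.42.0, other scalings and filters, a replicate block and leaving out each library were alternatives. The code was tested on simulated data. Standard errors are the absolute log2 fold change divided by the root of F. Positions and canonical transcript lengths are from GENCODE 44 (hg38), newer than the authors' annotation. Precision is limited by 3 libraries a line, and the depth was 55436267 to 68274783 summed counts. The library kit was stranded, but the strand setting of the counting is not given in the sources used here, so reads of overlapping genes may be shared. The members and gene lists were chosen with earlier results of these data known. The text names all members, DNMT3B, up to 4 genes per list with the smallest adjusted p among those that passed, the nearest tested genes and overlapping genes of members that passed, the 3 genes most like KDM4D, and the cell type markers.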

Additional observations from a re-analysis of the deposited data

How the results depend on the processing

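KDM4D passed under each alternative, and the directions of all members but KDM4B held under each. For the 8 members whose libraries did not overlap between the lines, leaving out a library could hardly turn the direction. For KDM4B the log2 fold change was -0.0017 with relative log expression size factors, -0.0044 with DESeq2, and -0.0763 to 0.134 when a library was left out, with -0.0533 without HCT116 replicate 1, -0.0763 without HCT116 replicate 3 and -0.0248 without DNMT3B KO replicate 2. Leaving out a library gave 3049 to 5924 genes that passed in all, 1 to 6 members higher and 0 to 2 lower, 1 to 3 other JmjC genes higher and 0 to 2 lower, 0 to 3 methyltransferase or HP1 genes higher, 1 to 3 genes of 2-oxoglutarate metabolism lower, and 0 to 2 hypoxia-induced genes higher. Total counts gave 0 members lower, 5 other JmjC genes higher and 0 lower, and 5 methyltransferase or HP1 genes higher. With no filter on low counts 3 members were higher, 0 other JmjC genes lower and 1 methyltransferase or HP1 gene higher. A filter of 1 CPM gave 1 member lower. DESeq2 gave 3 genes of 2-oxoglutarate metabolism and 5 hypoxia-induced genes lower. With exon unions as lengths the summed level was 73.7 in HCT116 and 82.4 in DNMT3B KO cells. The cause was not tested. Deviations of same-numbered libraries correlated at 0.0641, -0.00963 and 0.122, and HCT116 replicate 2 correlated best with DNMT3B KO replicate 1 (0.084), so the numbers were not taken as pairs. With the replicate block the calls of KDM3A (adjusted p = 0.0755), JMJD1C (0.074), PHF8 (0.076), SETDB1 (0.054), NDRG1 (0.062), RIOX2 (0.060) and HSPBAP1 (0.067) were lost, 3 members were higher and 1 lower, 0 other JmjC genes lower and 1 methyltransferase or HP1 gene higher, and 4214 genes passed in all.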
